A study of Mus musculus with 3 samples.

Results

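The 9 genes Usp18, Ifit1, Ifit2, Ifit3, Isg15, Oasl2, Stat2, Irf7 and Irf9 of the type I interferon response were followed in mouse embryoid bodies, the free-floating aggregates that differentiating embryonic stem cells form. They were taken by gene name from the arrays, with every probe. These 9 genes, read by 10 probes, stood among 30175 gene names and 39429 probes. Of the 10 probes, 9 entered the test, representing 8 genes, because one of the genotypes gave a signal well above background on every array, and the probe of Irf7 did not.

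Mutant and wild-type embryoid bodies were compared at day 10. The control is labelled Wildtype control. The mutant, labelled Dido3deltaCT+HADidoNT, makes a Dido3 protein that lacks part of its C terminus and has, in addition, an overexpressed N-terminal fragment with an HA tag, the stretch with the PHD domain that is common to the Dido isoforms, so the effects of the truncation and of the added fragment cannot be told apart. Both genotypes were kept in suspension without LIF and cultured in parallel, with 3 biological replicates each. The sources used here do not give the promoter of the added construct or the number of clones. Each of 3 2-colour Agilent arrays held 1 mutant and 1 wild-type RNA, and the mutant was labelled with Cy3 except on array 2, where it was labelled with Cy5. A dye effect therefore does not cancel, and on array 2 dye and replicate cannot be told apart.

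Type I interferons are secreted proteins that cells make after sensing foreign or misplaced nucleic acid. They bind the receptor chains IFNAR1 and IFNAR2, and the kinases JAK1 and TYK2 then phosphorylate STAT proteins such as STAT2, which joins IRF9 in a complex called ISGF3. This complex binds the interferon-stimulated response element in the promoters of antiviral genes. Embryonic stem cells are known to respond weakly to interferon and to gain the response as they differentiate. The IFIT proteins bind viral RNA, ISG15 is a ubiquitin-like modifier, USP18 removes ISG15 from proteins and damps signalling at the receptor, OASL2 belongs to the oligoadenylate synthetase family, and IRF7 drives interferon gene transcription.

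The promoters of 4 of these genes hold letters that match the core of that element and are shown for that reason. Binding to them was not measured. The core was searched as GAAANNGAAA on both strands in the RefSeq windows of GRCm38.p6, from 250 bases before to 50 bases after the transcription start. Windows were given for 8 of the 9 genes, the exception being Usp18. The sequences run 5′ to 3′ on the strand of the gene, with the core or its reverse complement in capitals and 15 bases on either side.
Ifit1, chr19:34640770-34640828, plus strand: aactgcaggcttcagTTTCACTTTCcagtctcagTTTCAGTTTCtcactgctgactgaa
Ifit3, chr19:34583358-34583431, plus strand: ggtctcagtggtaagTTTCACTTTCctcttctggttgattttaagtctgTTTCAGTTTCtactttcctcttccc
Isg15, chr4:156200860-156200911, minus strand: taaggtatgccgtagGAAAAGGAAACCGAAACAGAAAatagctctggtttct
Stat2, chr10:128270261-128270300, plus strand: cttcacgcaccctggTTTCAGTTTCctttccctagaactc

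Ifit1 and Ifit3 each held 2 matches on the strand opposite to the gene, and in both genes the upstream match read TTTCACTTTC and the one nearer the start TTTCAGTTTC. In Ifit1 they began 104 and 85 bases before the start, and in Ifit3 156 and 122 bases before it. Isg15 held 3 overlapping matches on its own strand, between 78 and 57 bases before the start. The single match of Stat2 began 222 bases before the start, also on the opposite strand. No match was found in the windows of Ifit2, Irf7, Irf9 and Oasl2, which says only that these letters are not in those windows. The share of 4 of 8 genes (50%) stands beside 1079 of all 27025 genes with a window (3.99%) and 41 of 111 other interferon-pathway genes (36.9%).

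**Figure D1:**
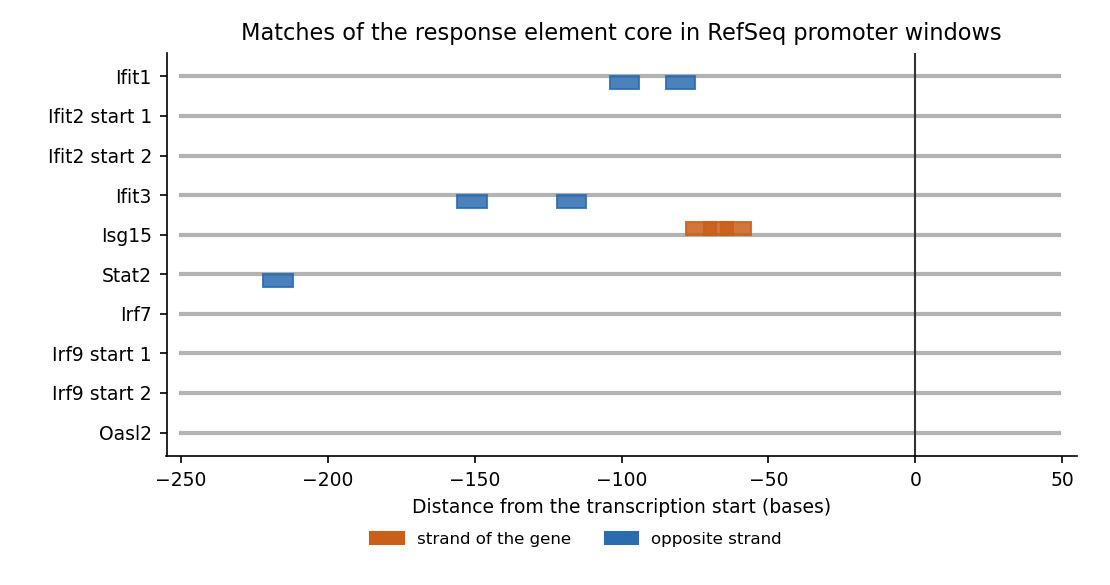
Matches of the 10-base core of the interferon-stimulated response element in the RefSeq promoter windows of 8 genes, by distance in bases from the transcription start at 0; blocks above a line lie on the strand of the gene and blocks below it on the opposite strand. Ifit1, Ifit3, Isg15 and Stat2 hold matches, with those of Isg15 nearest the start and that of Stat2 farthest from it.

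Levels below are normalized spot intensities of each genotype on an array, in arbitrary units, and are compared only within a probe. Ratios are log2 of the mutant level divided by that of wild type, so that a value above 0 is a higher level in the mutant, given as mean ± SD over n = 3 arrays with the 95% interval of the limma fit. Probe positions are those of the files (mm9); the exon or UTR under a probe was not assigned, as no annotation of that build was used. In these whole embryoid bodies, fewer cells of a type and less RNA per cell cannot be told apart.

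Usp18, the deconjugating enzyme and feedback inhibitor, rose in the mutant. Its probe on chr6:121220874-121220933 (plus strand) read 1171, 965 and 866 units in the mutant and 420, 293 and 281 units in wild type on arrays 1, 2 and 3. The lowest mutant level was above the highest wild-type level, so the genotypes did not overlap. The log2 ratios were 1.48, 1.72 and 1.62, a mean of 1.61 ± 0.12 or 3.05-fold, with an interval of 1.13 to 2.08 and an adjusted p of 0.0379 in limma. Usp18 was the only 1 of the 8 tested genes called at an adjusted p under 0.05, where 498 of 19667 genes over the whole array were called (2.53%), 372 of them higher (1.89%) and 126 lower (0.641%). Counted by probe it was 1 of 9, where 664 of 25496 probes were called (2.6%), 490 of them higher (1.92%). Without array 2 its ratio was 1.55 and still passed (adjusted p = 0.0118), but 7191 of 25496 probes passed in that fit. Cy3 then marks the mutant on every array left, so dye and genotype cannot be told apart. Without array 1 or array 3 the ratio of Usp18 was 1.67 and 1.60 and did not pass (adjusted p = 0.227 and 0.158). In each of those fits 0 of 25496 probes passed.

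The 3 Ifit genes, whose probes lie near one another on chromosome 19, were read higher in the mutant on every array but did not pass the adjusted threshold. Ifit3, on chr19:34663105-34663164 (plus strand), read 321, 377 and 277 units in the mutant and 120, 147 and 136 units in wild type. The genotypes were well separated, and all 3 arrays were more than 2-fold higher in the mutant. The ratios were 1.42, 1.36 and 1.03, a mean of 1.27 ± 0.21 or 2.41-fold, with an interval of 0.77 to 1.77 and an adjusted p of 0.0512, just outside the threshold. Ifit3 passed with another way of treating the background or the dyes in several settings. Among them were median centring in place of loess (1.34, adjusted p = 0.0489) and the scanner's own log ratio (2.05, adjusted p = 0.0391). Of 25496 probes 707 passed with median centring and 1315 with the scanner's log ratio, beside 664 with the settings used throughout. In other settings Ifit3 lay further from the threshold. It was at 0.88 with no background limit (adjusted p = 0.312) and 0.91 with the authors' deposited log ratios (adjusted p = 0.0851). With an intensity trend its adjusted p was 0.105. Without array 1 or array 3 it did not pass either (adjusted p = 0.387 and 0.184). In each of these settings where Ifit3 did not pass, 0 of 25496 probes passed.

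Ifit2, on chr19:34650244-34650303 (plus strand), read 577, 549 and 519 units in the mutant and 248, 319 and 248 units in wild type. Both sets of 3 levels were narrow and lay apart. The ratios of 1.22, 0.78 and 1.07 gave 1.02 ± 0.22, or 2.03-fold, with an interval of 0.51 to 1.53 and an adjusted p of 0.0732. Ifit1, on chr19:34723796-34723855 (plus strand), read 331, 149 and 199 units in the mutant and 87.7, 100.4 and 75.9 units in wild type. Its genotypes did not overlap either, but the mutant on array 2 came close to wild type, and wild type was well above background on 2 of 3 arrays only. The ratios of 1.92, 0.57 and 1.39 gave 1.29 ± 0.68, or 2.45-fold, with an interval of 0.49 to 2.10 and an adjusted p of 0.110. For this dim probe the ratio depended on the background step. With the scanner's own log ratio it was 2.96 (adjusted p = 0.0371), where 1315 of 25496 probes passed.

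Isg15 is read by a pair of probes on chromosome 4, and its levels within a genotype varied widely between arrays. The brighter probe, on chr4:155573649-155573708 (minus strand), read 1802, 2157 and 1037 units in the mutant and 1937, 431 and 699 units in wild type. Wild type on array 1 was above the mutant on arrays 1 and 3, and wild type on array 2 was the lowest of the 6 levels, so the genotypes overlapped. The ratios were -0.10, 2.32 and 0.57, a mean of 0.93 ± 1.25 with an interval of -0.37 to 2.23 and an adjusted p of 0.373. The second probe, for which the file gives a position of 20 bases for a probe of 60, had the same order of arrays, at -0.01, 0.91 and 0.19 (0.37 ± 0.48, adjusted p = 0.480), and was well above background in wild type on 2 of 3 arrays. Without array 2 the ratio of the brighter probe was 0.23 (adjusted p = 0.464).

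Oasl2, on chr5:115362168-115362227 (plus strand), read 221, 377 and 651 units in the mutant and 225, 345 and 291 units in wild type. The mutant was far above wild type on array 3 alone and nearly level with it on arrays 1 and 2, and the genotypes overlapped. The ratios of -0.02, 0.13 and 1.16 gave 0.42 ± 0.64, with an interval of -0.36 to 1.20 and an adjusted p of 0.491. Without array 3 the ratio was 0.05.

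**Figure D2:**
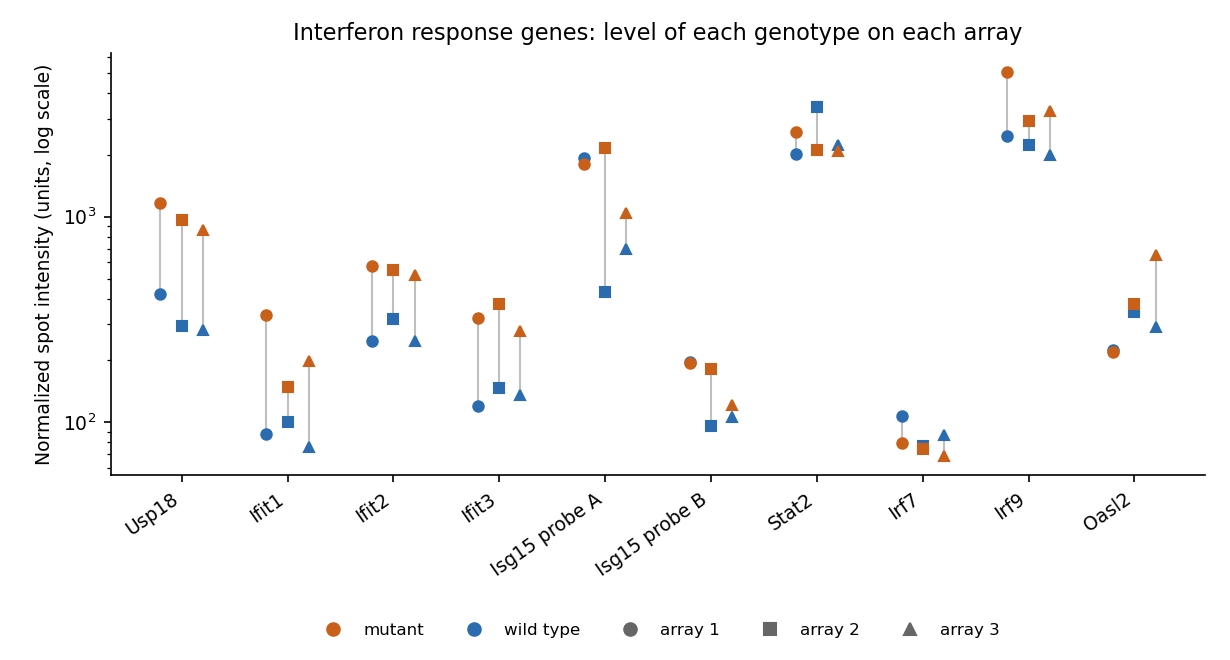
Normalized spot intensity (arbitrary units, log scale) of the mutant and wild type on each of 3 arrays for the 10 probes; a grey line joins the pair that shared an array, and Isg15 probe A is the brighter of its pair. The genotypes lie apart for Usp18, Ifit1, Ifit2, Ifit3 and Irf9 and overlap for Isg15, Oasl2, Stat2 and Irf7.

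Irf9 and Stat2, which encode subunits of ISGF3, were read in different directions, and their difference was not tested. Irf9, the DNA-binding subunit, has its probe on chr14:56228806-56228865 (plus strand), which read 5058, 2909 and 3253 units in the mutant and 2463, 2239 and 2006 units in wild type. The lowest mutant level stood above the highest wild-type level, with the widest gap on array 1. The ratios of 1.04, 0.38 and 0.70 gave 0.70 ± 0.33, or 1.63-fold, with an interval of 0.14 to 1.27 and an adjusted p of 0.167. Without array 2 the ratio of Irf9 was 0.87 and passed (adjusted p = 0.0330), as did 7191 of 25496 probes. Cy3 then marks the mutant on every array left, and dye and genotype cannot be told apart. Stat2, the transactivating subunit, has its probe on chr10:127729834-127729893 (plus strand), which read 2574, 2115 and 2077 units in the mutant and 2020, 3400 and 2232 units in wild type. Stat2 was higher in the mutant on array 1 and lower on arrays 2 and 3, with overlapping genotypes. The ratios of 0.35, -0.69 and -0.10 gave -0.15 ± 0.52 (interval -0.83 to 0.54, adjusted p = 0.802), and without array 2 the mean turned to 0.12.

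Irf7, itself an interferon-induced gene, was close to background in both genotypes. The file gives its probe on chromosome 7 a span of 351 bases for 60 bases of probe (148450664 to 148451014, minus strand). It read 79.1, 74.4 and 68.6 units in the mutant and 107.2, 76.6 and 86.8 units in wild type. It was well above background in wild type on 2 arrays and in the mutant on none, and the levels overlapped. The ratios of -0.44, -0.04 and -0.34 gave -0.27 ± 0.21. No fold is given for a probe so near background. Fitted with no filter on dim probes, over 38615 probes, its interval ran from -0.65 to 0.10 and its adjusted p was 0.433.

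**Figure D3:**
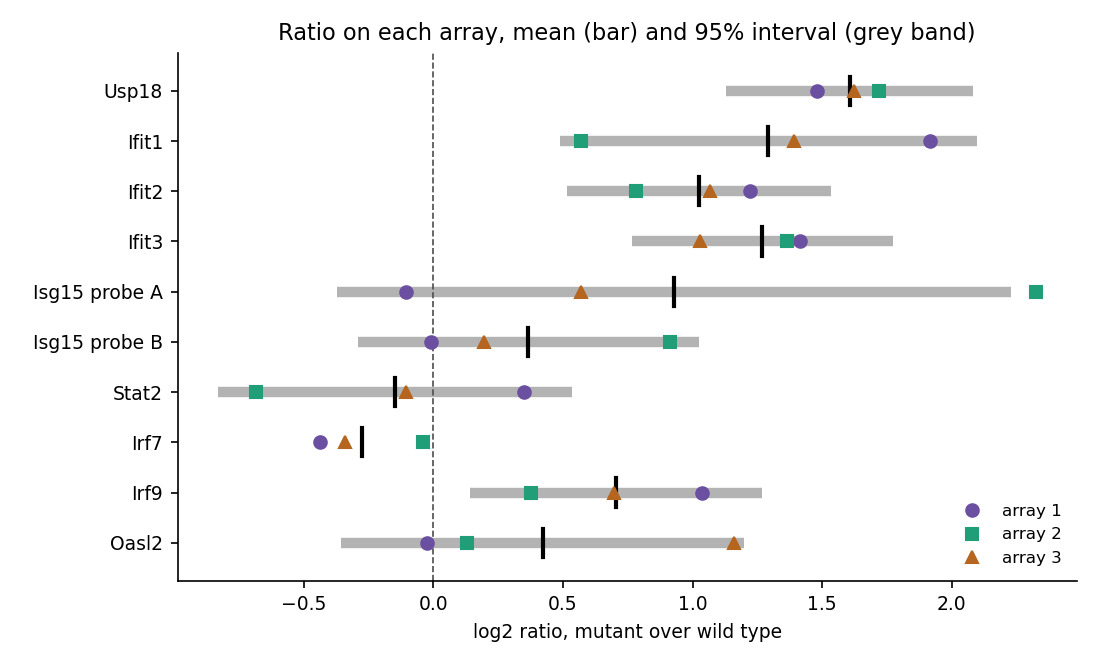
Log2 ratio of mutant over wild type on each of 3 arrays (points) for the 10 probes, with the mean (black bar) and the 95% interval of the limma fit (grey band, none for Irf7, which was not tested); the dashed line marks no difference. Usp18 has the highest mean at 1.61, Ifit1, Ifit2, Ifit3 and Irf9 lie above 0 on all 3 arrays, and Isg15, Oasl2 and Stat2 have arrays on both sides of 0.

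Across the 8 tested genes, by the brightest probe of each, 5 were higher in the mutant on all 3 arrays, where 22.5% of all genes tested were. None of the 8 was lower on all, where 3764 of 19667 genes were. Irf7, close to background and not tested, was lower on all 3 arrays, at -0.44, -0.04 and -0.34. The same 5, namely Usp18, Ifit1, Ifit2, Ifit3 and Irf9, had levels that did not overlap between genotypes (13% of all genes did so in that direction and 8.58% with lower levels in the mutant, which none of the 8 had) and an unadjusted p under 0.05 (20.2% of all genes had such a p, and 12.2% had it with a higher mutant). Usp18 and Ifit3 were at least 2-fold higher on all 3 arrays, as were 3.1% of all genes. The median ratio of the 8 genes was 0.98, with array medians of 1.13, 0.68 and 1.05, and the median of all genes was -0.01. Ifit1 was tested only through its mutant signal, and where both genotypes had to be well above background on all arrays it dropped out, leaving 4 of 7 genes at an unadjusted p under 0.05. The genes were chosen with results of these arrays known, so these counts describe the genes and are no test of them.

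These values rest on how the local background of array 2 was treated. On that array the local background of 25 spots exceeded 100 units, with a highest value of 75739, while no spot of arrays 1 and 3 exceeded 60, and the background was limited to 100 units throughout. Without the limit the ratio of Usp18 on array 2 was 0.56 in place of 1.72, its mean was 1.22 ± 0.58 and it did not pass (adjusted p = 0.258). The other 7 tested genes then ranged from -0.10 for Stat2 to 1.12 for Ifit1, and none passed. Over all genes limma then called 0 of 19667 (0%), with 3070 at an unadjusted p under 0.05 (15.6%), among them 5 of the 8 interferon response genes. In the authors' deposited table the log2 ratio of Usp18 was 1.16 and those of Ifit1, Ifit2 and Ifit3 were 0.92, 0.74 and 0.91, and none of the 8 genes passed in limma on those values.

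Among other genes of the pathway, 2 of 121 tested rose and none fell (2.53% of all genes were called in either direction), with a median ratio of 0.01, while 32 were higher and 20 lower on all 3 arrays. Over the whole array 4416 of 19667 genes (22.5%) were higher and 3764 lower on all 3 arrays. The interferon genes themselves were near background. Of 15 ligand genes on the array 7 were tested and none passed. Ifnb1, the gene of interferon beta, was not well above background in any sample, and neither were Ifna4 and Ifne. The ligands with the smallest p were Ifnl3 at -0.22 ± 0.24, Ifnk at 0.18 ± 0.33 and Ifna11 at 0.10 ± 0.33.

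Of 10 receptor, kinase and STAT genes tested, 1 rose and none fell, with a median of 0.38. Stat3, the STAT of LIF and interleukin 6 signalling, read 2464, 2898 and 1820 units in the mutant and 665, 715 and 717 units in wild type. It was more than 2-fold higher on each array, at 1.75 ± 0.36 (adjusted p = 0.0422), and its second probe read 1.29 ± 0.66 (adjusted p = 0.107). The call of Stat3, and that of Lgals3bp, an antiviral effector, was lost without the background limit, with the authors' ratios, with an intensity trend and without array 1 or array 3, settings in which 0 of the 121 pathway genes passed. The receptor chains went in different directions without passing. Ifnar2 was lower on all 3 arrays, at -1.39 ± 0.36 (adjusted p = 0.0553), with 1349, 1514 and 1029 units in the mutant and 3079, 5310 and 2311 units in wild type. Ifnar1 was at 0.58 ± 0.20 (adjusted p = 0.187), and its other probes read 0.64 ± 0.89 and 0.45 ± 0.16. The kinase gene Tyk2 was at 0.43 ± 0.15 (adjusted p = 0.290) and Jak1 at -0.44 ± 0.62 (adjusted p = 0.459), Jak1 being lower on arrays 1 and 3 and higher on array 2.

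None of the 7 other interferon regulatory factors passed, and their median was -0.19. Irf4, known from lymphocytes, was lower on all arrays at -1.90 ± 0.67 (adjusted p = 0.0553) and was well above background in the mutant on 1 array only. Irf5 was at 0.78 ± 0.40 (adjusted p = 0.161) and Irf3, which acts upstream of interferon genes, at -0.30 ± 0.26 (adjusted p = 0.464). None of the 9 brakes on the pathway passed either, with a median of -0.03, and those with the smallest p were the phosphatase gene Ptpn6 at -0.61 ± 0.80, Irf2bp1 at -0.42 ± 0.50 and Socs1, a JAK inhibitor, at 0.30 ± 0.38.

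The 19 sensors and adaptors tested had a median near 0 (0.0014) and none passed. The dim levels of Dhx58, which encodes the RNA sensor LGP2 and is itself interferon-induced, did not overlap between genotypes. It read 323, 269 and 353 units in the mutant against 183, 171 and 180 units in wild type, at 0.81 ± 0.16 (adjusted p = 0.102). Adar, the RNA-editing enzyme, was lower by its brighter probe at -0.90 ± 0.16 (adjusted p = 0.0842) and not by its other probe (0.28 ± 0.24). The adaptor gene Traf3 was at -0.60 ± 0.05 (adjusted p = 0.159).

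Of 41 other antiviral effector genes 1 rose and none fell, with a median of 0.06 and 13 higher and 3 lower on all arrays. Of all 19667 genes 4416 were higher and 3764 lower on all arrays. Lgals3bp, a secreted scavenger-receptor protein induced by interferon, read 7287, 9220 and 6389 units in the mutant and 1367, 2223 and 1433 units in wild type. Its genotypes lay far apart, at 2.21 ± 0.19 or 4.62-fold (adjusted p = 0.0310), with the second probe at 1.53 ± 0.39 (adjusted p = 0.0503). The enzymes that attach ISG15 to proteins were singled out after their values were seen. Ube2l6, its E2 enzyme, was at 1.51 ± 0.57 by the brighter probe (adjusted p = 0.0666) and -0.02 ± 0.20 by the other, the E1 gene Uba7 at 0.84 ± 0.65 (adjusted p = 0.213) and the ligase gene Herc6 at 0.41 ± 0.49 (adjusted p = 0.427), so none of the 3 passed.

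Of 12 interferon-inducible GTPase genes, which act against intracellular pathogens, none passed, with a median of 0.26. Gbp7 was at 0.90 ± 0.29 (adjusted p = 0.104), Gbp4 at 0.79 ± 0.17 (adjusted p = 0.110) and Gbp5 at -0.73 ± 0.35 (adjusted p = 0.163). Gbp7 was tested only through its mutant signal, as wild type was well above background on 2 arrays only. The second probe of Gbp7 was not well above background in any sample. The 16 genes of MHC class I presentation had a median of -0.36, with 8 lower and 1 higher on all arrays and none passing. Of all 19667 genes 3764 were lower and 4416 higher on all arrays. Psmb10, an immunoproteasome subunit, was at -0.97 ± 0.43 (adjusted p = 0.116), the peptide transporter gene Tap2 at -0.70 ± 0.27 and H2-Q4 at 1.06 ± 0.65.

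**Figure D4:**
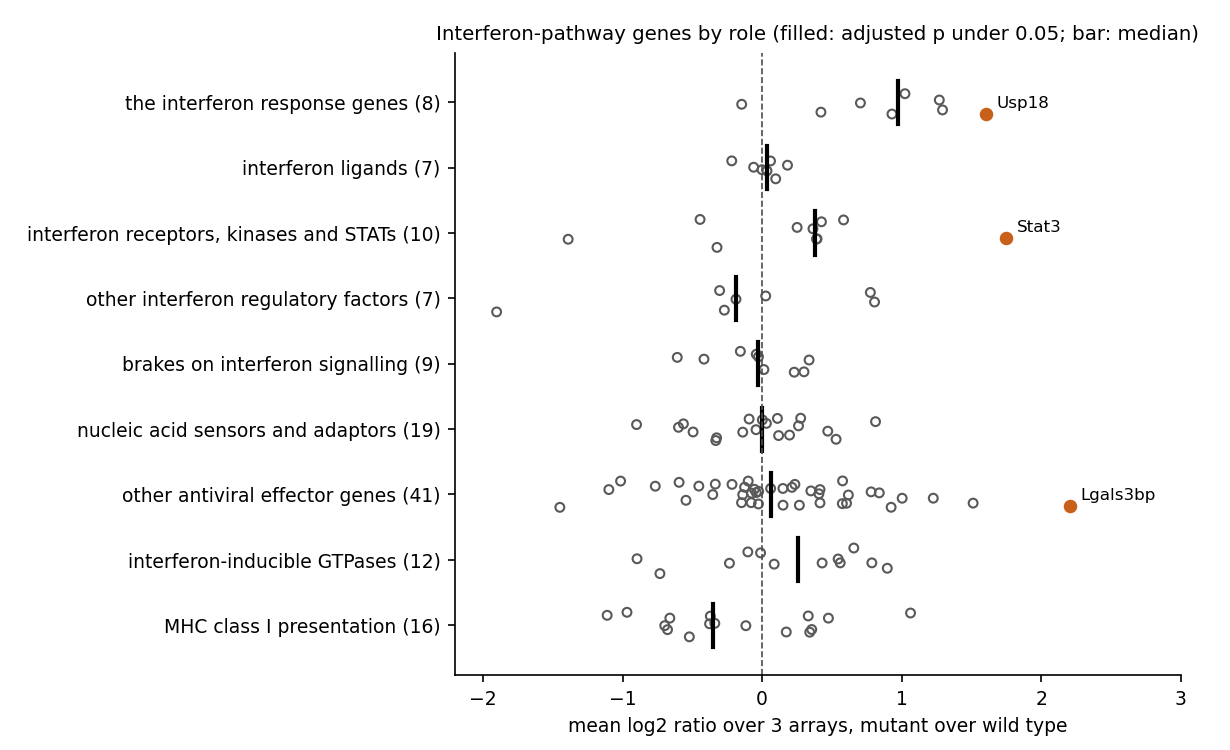
Mean log2 ratio of mutant over wild type over 3 arrays for each tested gene (circles), by role, with the number tested in brackets; filled circles passed an adjusted p under 0.05 and black bars are medians. The interferon response genes have a median of 0.98, the other lists have medians between -0.36 and 0.38, and Usp18, Stat3 and Lgals3bp are the filled circles.

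The response element core printed above was also looked for in the promoters of the other pathway genes. All 8 of the GTPase genes with a window held it, as did 16 of 38 antiviral effectors and 8 of 14 ligands. It was held by 4 of 13 MHC class I genes, 3 of 16 sensors and adaptors, 1 of 7 brakes and 1 of 6 other regulatory factors. Of 9 receptor, kinase and STAT genes 0 held it, and 3.99% of all genes with a window did. Of 34 tested pathway genes with the core 17 were higher in the mutant, with a median of 0.02 and none passing. Of 61 without it 30 were higher, with a median of -0.04 and 2 passing. Among the interferon response genes themselves, 2 of the 4 with the core, Ifit1 and Ifit3, were higher on every array, and Isg15 and Stat2 were not. Of the 4 with a window but without the core, 2 were higher on every array, Ifit2 and Irf9, and Oasl2 and Irf7 were not.

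Outside these lists, the genes whose 3 array ratios lay closest to the medians of the interferon response genes, of 19486 searched by Euclidean distance on the log2 ratios, were Itih4 (distance 0.065, mean 0.92 ± 0.26), Crebl2 (distance 0.065, mean 0.97 ± 0.27) and Enoph1 (distance 0.070, mean 0.92 ± 0.27).

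Marker genes of several cell types moved with the genotype, and their part in the values above was not tested. Summed levels add the signals of different probes and so rest mostly on the brightest of a list. Markers of macrophages and other leukocytes, cells with strong interferon responses, had a summed level of 8150 to 16458 units in the mutant and 6322 to 11191 in wild type, of which Itgam alone gave 8907, 5909 and 5059 units in the mutant and 4652, 5302 and 4370 in wild type. Of 8 tested, 4 were higher and 2 lower on all arrays and none passed, with Csf1r at 1.64 ± 0.68 (adjusted p = 0.0702) and Cd68 at -1.06 ± 0.90, while Ptprc, the common leukocyte antigen, was well above background in the mutant on 0 arrays and in wild type on 1. The summed level of 8 endothelial markers was 20444 to 33245 units in the mutant and 5382 to 5714 in wild type. Flt1 alone gave 23186, 14508 and 15158 units in the mutant and 2078, 1840 and 2312 in wild type. Flt1 and Kdr rose, and the median of the 8 was 0.90. Of these, 6 were higher and 0 lower on all arrays (22.5% of all genes were higher). Cdh5 was at -0.03 ± 0.40 and Eng at 0.16 ± 0.30. For 8 visceral endoderm markers the summed level was 335046 to 634122 against 51154 to 177682, with Ttr risen and a median of 2.34. The 8 mesenchyme markers tested had a median of 1.68 with 2 risen and the 6 cardiac markers one of 2.90 with 2 risen. On all 3 arrays 7 visceral endoderm, 6 mesenchyme and 6 cardiac markers were higher, and 0 markers of these lists were lower. Neither the 6 neural nor the 8 pluripotency markers had a gene that passed. All 6 neural markers were lower on all arrays, where 3764 of 19667 genes were. Of the pluripotency markers 1 was lower and 1 higher on all arrays. The neural list had a median of -2.82, with array medians of -3.67, -0.46 and -4.26, so array 2 stood apart. The pluripotency list had a median of -0.97, with array medians of -2.21, -1.81 and 0.81, the sign turning on array 3. Of 4 probes of Dido1, the altered gene, 2 rose (2.35 ± 0.40 and 3.03 ± 0.34, adjusted p = 0.0341 and 0.0310), 1 fell (-3.60 ± 0.17, adjusted p = 0.0310) and 1 did not pass (-0.54 ± 0.93, adjusted p = 0.494).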

How the data were processed

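Per the file headers, the authors' deposited scanner output came from Feature Extraction 10.7.3.1 and gives the intensity of each spot and of its local background. Per the file headers it also gives a log10 ratio of red over green. Log2 ratios were deposited by the authors in a separate table, for which limma is named in the submitters' processing notes. Against scanner ratios its slopes were 0.91, 0.93 and 0.97, in the direction mutant over wild type, and its medians -0.01, 0.02 and -0.01; no source used here gives its centring and background steps.

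In R 4.3.3 with limma 3.58.1, local background was limited to 100 units, then normexp (offset 50) and loess within each array were applied, giving control spots no weight. These spots and outliers were then removed, and repeated spots of a probe were averaged. A probe was kept when one of the genotypes was well above background on every array (25496 of 39429). Log2 ratios, turned by the dyes in the labels, were tested against 0 by limma's lmFit and eBayes. Tests were two-sided, and p-values were adjusted over all kept probes by Benjamini-Hochberg at a threshold of 0.05. A gene's call is that of its brightest kept probe, and levels are channel values after loess and Aquantile scaling. All 3 arrays lay on 1 slide. Median spot intensities were 150 to 288 units over a local background of 36 to 40, 63.4% to 74.8% of probes were well above background, no probe was saturated, and the number of arrays limits precision. Ratios of arrays 1 and 3 correlated at 0.80 over kept probes, and array 2 with them at 0.38 and 0.21. Symbols were updated through RefSeq tables (GRCm38.p6), and 8054 probes kept the file's name.

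The 9 genes, the lists, the marker lists, the limit on local background and the alternatives were chosen with earlier results of these data known. The text names all 9 genes, the genes of each list that passed (or the 3 with the smallest p), Ifnar1, Ifnar2, Jak1, Tyk2, Irf3, Ifnb1 and Dido1, and the 3 genes of most similar ratios; some genes of the lists are not reported here.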

Additional observations from a re-analysis of the deposited data

How the results depend on the processing

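Under the alternatives, the median ratio of the interferon response genes, 0.98, ranged from 0.71 with the authors' deposited log ratios to 1.09 with the scanner's, and from 0.95 to 1.06 with a replicate left out. Of the ratios of single probes, 123 kept direction and side of the threshold, 12 newly passed, 5 no longer passed, all of them of Usp18 (without a background limit, with the authors' ratios, with an intensity trend at an adjusted p of 0.105, and without replicate 1 or 3), and 1 reversed: Stat2, from -0.15 to 0.12 without replicate 2, its range with a replicate left out being -0.39 to 0.12. The calls moved as follows, in the order probes (664), interferon response genes (1) and other pathway genes (2). With no background limit, with the authors' ratios and with an intensity trend limma called 0, 0 and 0, with 3985, 5201 and 5411 probes at an unadjusted p under 0.05. An offset of 16 gave 1139, 2 and 4, the scanner's log ratio 1315, 3 and 5, a dye term 3900, 5 and 17 and a threshold of 0.1 gave 1945, 3 and 6. Probes and pathway genes called were 142 and 1 with no filter and 258 and 1 with the mean of a gene's probes, 325 probes were called with 1 probe per gene, and 2 interferon response genes with median centring. With a replicate left out the calls ranged from 0 to 7191 probes, 0 to 5 interferon response genes and 0 to 22 pathway genes; all were 0 without replicate 1 or 3 (2269 and 3167 probes at an unadjusted p under 0.05) and highest without replicate 2. Without replicate 2 dye and genotype cannot be told apart, and with a dye term array 2 is fitted exactly. The fit is itself paired, as each ratio compares the mutant and wild-type RNA of an array, and no replicate block could be added. Signal over background limits Irf7, Ifit1 and the ligand genes most.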
